A study of Mus musculus with 6 samples.

Results

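Fgf2, Fgf7, Fgf10 and Fgf18 encode secreted fibroblast growth factors (FGFs) that stromal cells and preadipocytes release to act on cells nearby. They were chosen by gene symbol, as a set of paracrine FGF ligands made by mesenchymal cells, and all 4 were found among the 22609 genes with a read count. Gene expression was compared between cultured mouse fat cells overexpressing the microRNA miR-182 and cells with a control vector, in 3 samples per group. In both groups the cells were primary cultured inguinal white fat (iWAT) from male C57BL6 mice aged 3 weeks, grown from the stromal vascular fraction of the fat pad and taken through differentiation. The control group is labelled control vector and the other group miR182, and the labels say that both were delivered by electroporation. The study's methods describe another route instead, a miR-182-5p mimic carried by a lipid reagent, and give another mouse age. Nothing in the labels says whether the 3 samples of a group came from separate mice or cultures, so p-values measure the spread between these samples, which may be technical. The study followed the ligand gene Fgf21, and the comparison here asks how the stromal FGF ligands stood in the same samples.

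Paracrine FGFs leave the cell, are held in the matrix by heparan sulfate chains, and bind an FGF receptor together with that sugar chain. The receptor then phosphorylates an adaptor encoded by Frs2, which recruits GRB2 and SOS and feeds the RAS, RAF and ERK kinases. ERK switches on early genes and its own brakes, among them the Sprouty and dual specificity phosphatase genes. Fgf7 (keratinocyte growth factor) and Fgf10 form a subfamily that acts mainly on the b splice form of FGFR2, which epithelial cells carry, although Fgf10 is also known for its role in preadipocyte growth and fat development. Fgf2 (basic FGF) has broad receptor binding and is known as a mitogen for mesenchymal cells and preadipocytes, and Fgf18 belongs to the Fgf8 subfamily and acts mainly on the c splice forms found in mesenchyme.

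The sequence of the microRNA is shown because a match to its seed is the usual first test of whether a transcript could pair with it. The RefSeq entry for mouse miR-182-5p lies on chromosome 6 of GRCm38.p6, bases 30165962 to 30165986 on the minus strand, and has 25 bases. Capitals mark its seed, bases 2 to 8.
miR-182-5p: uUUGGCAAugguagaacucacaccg
A transcript pairs with this seed through TTGCCAA, read on the transcript strand only. The longest annotated 3′-UTR of each of the 4 ligand genes held no TTGCCAA, and neither did any other annotated 3′-UTR of these genes. These UTRs had 5311 bases in Fgf2, 1624 in Fgf7, 2799 in Fgf10 and 335 in Fgf18. Of the 21045 genes with a 3′-UTR in the annotation (GENCODE M21 on GRCm38), 10.9% held the same letters. The longer match TTGCCAAA, which overlaps TTGCCAA and was present in 4.24% of genes, and the shorter-seed match TGCCAAA, present in 11.9%, were also at 0 in all 4. The study's methods print another sequence for the mature microRNA, so the letters above stand for the RefSeq entry and not for a checked mimic.

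Reads counted on genes came to between 25869810 and 28796712 per sample. On a principal component analysis the groups lay apart along the main axis, with 65.1% of the variance. The precursor gene Mir182 was at 0 reads in all 6 samples of these poly(A) libraries, so the overexpression itself cannot be checked here. Markers of differentiated fat cells were abundant, with control means of 928 ± 20.6 CPM (reads of a gene relative to the TMM-scaled library total; SD, n = 3) for Adipoq and 6275 ± 268 (SD, n = 3) for Lpl. Stromal markers were abundant as well, with control means of 450 ± 4.97 CPM (SD, n = 3) for Pdgfra and 705 ± 13.5 (SD, n = 3) for Pdgfrb. The leukocyte gene Ptprc had at most 4 reads in any sample and the endothelial gene Pecam1 at most 11. Other genes of these lists were not near 0, since the macrophage genes Cd68 and Csf1r had 5.64 ± 0.334 and 6.08 ± 0.462 CPM and the endothelial gene Tek 6.05 ± 0.608 CPM in control samples (SD, n = 3 each), levels like those of Fgf2 and Fgf18. The summed level of the 8 macrophage and leukocyte genes was 12.9 to 14.5 CPM in control and 11.7 to 14.5 in miR182 samples, and that of the 6 endothelial genes 8.13 to 9.27 and 5.09 to 5.92 CPM. Tek is the largest part of the endothelial sum, with means of 6.05 CPM in control and 2.43 in miR182 samples. The endothelial gene Kdr had means of 1.59 and 2.14 CPM. The part of leukocytes and endothelial cells in the ligand levels was not tested. The keratins Krt8, Krt14 and Krt18 were at 0 in all samples. In bulk RNA, fewer cells of a type and less RNA per cell cannot be told apart.

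None of the 4 ligand genes differed beyond the spread of the samples. In edgeR's quasi-likelihood test, adjusted over 13117 genes by the Benjamini-Hochberg method, 0 of 4 passed an adjusted p under 0.05, a threshold that 46.7% of all genes tested passed (23.2% higher and 23.5% lower). With a change of at least 1.5-fold as well, 0 of 4 were called, against 7.45% of all genes (1.97% higher and 5.48% lower). The groups overlapped in all 4 ligand genes, whereas they did not overlap in 54.8% of all genes tested (27.3% higher and 27.5% lower). The mean level of each was slightly higher with miR-182, by 2.21% to 10.4%.

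Fgf7 was the most abundant of the 4. It had 2275, 2603 and 2510 reads in the control samples and 2973, 2602 and 2733 in the miR182 samples. Scaled to library size these were 89.4, 99.7 and 96.2 CPM against 102, 98.8 and 96.8 CPM. Control replicate 1 was the lowest sample and miR182 replicate 1 the highest, and the other 4 samples lay between 96.2 and 99.7 CPM. The means were 95.1 ± 5.23 and 99.1 ± 2.54 CPM (SD, n = 3 each), which is 0.06 on the log2 scale (SE 0.040, 95% interval -0.02 to 0.15, adjusted p = 0.235 from edgeR's test). The gene lies on chromosome 2 of GRCm38, bases 126034658 to 126091185 on the plus strand. The antisense gene Fam227b covers part of this span and shares 0 exon bases with it.

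Fgf10 was the steadiest of the 4. Its reads were 1962, 2003 and 1969 in the control samples and 2242, 2058 and 2241 in the miR182 samples. On the CPM scale they were 77.1, 76.7 and 75.4 against 76.8, 78.1 and 79.4. The whole range over 6 samples was thus narrow, and the lowest miR182 sample lay inside the control range. The means were 76.4 ± 0.857 and 78.1 ± 1.29 CPM (SD, n = 3 each), with a log2 fold change of 0.03 (SE 0.033, 95% interval -0.04 to 0.10, adjusted p = 0.458 from edgeR's test). Fgf10 lies on chromosome 13, bases 118669791 to 118792115 on the plus strand. The antisense RNA gene Gm16263 overlaps 123 of its 4601 exon bases, and whether counting used the strand is not given in the sources used here.

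Fgf2 was counted from far fewer reads, 185, 164 and 199 in the control samples and 224, 193 and 228 in the miR182 samples. These gave 7.27, 6.28 and 7.62 CPM against 7.67, 7.33 and 8.08 CPM. Control replicate 2 was the lowest sample, and the lowest miR182 sample fell between the other 2 controls. The means of 7.06 ± 0.697 and 7.69 ± 0.376 CPM (SD, n = 3 each) differed by 0.13 on the log2 scale (SE 0.095, 95% interval -0.08 to 0.33, adjusted p = 0.303 from edgeR's test). Fgf2 lies on chromosome 3, bases 37348346 to 37410108 on the plus strand. Of its 6782 exon bases, 640 are shared with Nudt6, an antisense gene that encodes a Nudix hydrolase, and 255 with Gm43439 on the same strand, so reads there may have been left out or assigned to either gene. Nudt6 had 18.5 ± 1.78 CPM (SD, n = 3) in control and 17.7 ± 1.24 (SD, n = 3) in miR182 samples, and did not pass the test either (adjusted p = 0.538 from edgeR's test).

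Fgf18 had the fewest reads, 136, 116 and 106 in the control samples and 150, 147 and 129 in the miR182 samples. This corresponds to 5.34, 4.44 and 4.06 CPM against 5.14, 5.58 and 4.57 CPM. The second highest sample of all 6 was a control, and the lowest miR182 sample lay among the controls. The means were 4.62 ± 0.658 and 5.10 ± 0.506 CPM (SD, n = 3 each), which is 0.14 higher on the log2 scale (SE 0.13, 95% interval -0.13 to 0.41, adjusted p = 0.384 from edgeR's test). Fgf18 lies on chromosome 11, bases 33117430 to 33147400 on the minus strand, and no other annotated gene overlapped it.

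**Figure D1:**
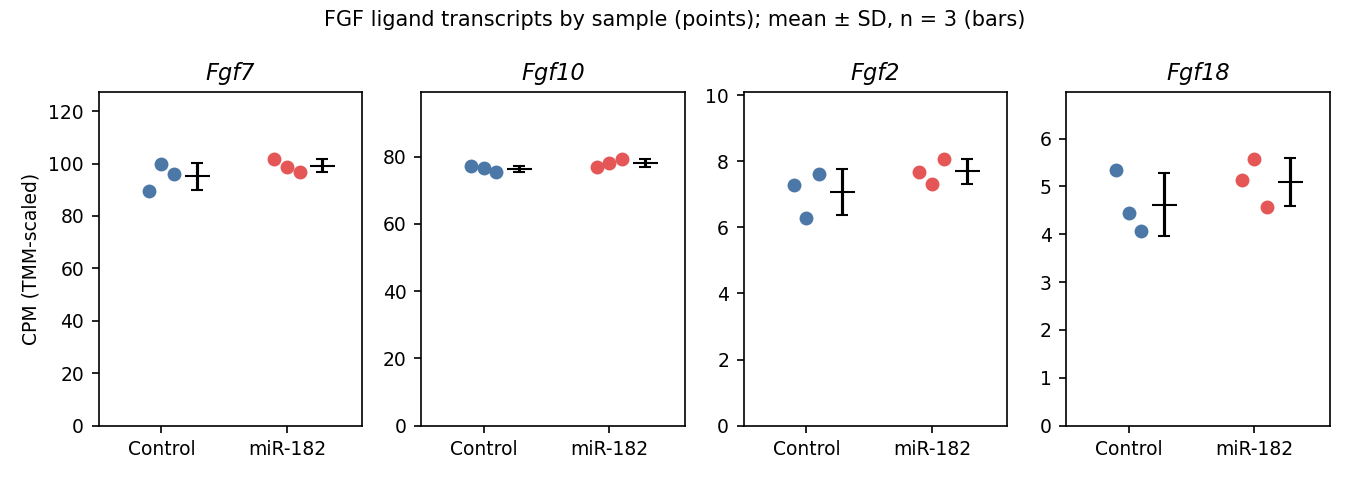
CPM (reads relative to the TMM-scaled library total) of Fgf7, Fgf10, Fgf2 and Fgf18 in each sample, with 1 panel per gene and axes that start at 0. Points are samples and the black bars are the mean ± SD of 3; in each panel the miR-182 points overlap the control points.

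The spread between samples was smaller for Fgf7 and Fgf10, which had more reads, than for Fgf2 and Fgf18, and of the first pair it was smaller for Fgf10. In the control samples the coefficient of variation was 1.12% for Fgf10, 5.50% for Fgf7, 9.87% for Fgf2 and 14.3% for Fgf18, and in the miR182 samples it was 1.65%, 2.56%, 4.88% and 9.94%. Counting error alone, from the mean control reads, gives 2.25% for Fgf10, 2.02% for Fgf7, 7.40% for Fgf2 and 9.15% for Fgf18. The spread of Fgf10 was thus no larger than counting error in either group. As a change in level, the 95% interval ran from -2.64% to 7.32% for Fgf10, from -1.72% to 10.6% for Fgf7, from -5.29% to 25.6% for Fgf2 and from -8.57% to 33.2% for Fgf18. All 4 intervals lay inside a 1.5-fold change in either direction, so a change of that size lies outside the interval of each gene. The intervals of Fgf2 and Fgf18 were the wider ones, and changes of the sizes inside them are not told apart from no change.

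The order of the 4 ligands by read count is not their order per length, because Fgf2 has the longest transcript and Fgf18 the shortest. Divided by the union of annotated exons in kilobases, the control levels were 29.3 ± 1.61 CPM per kb for Fgf7, 16.6 ± 0.186 for Fgf10, 3.89 ± 0.555 for Fgf18 and 1.04 ± 0.103 for Fgf2 (SD, n = 3 each). With miR-182 they were 30.5 ± 0.782, 17.0 ± 0.280, 4.29 ± 0.427 and 1.13 ± 0.0554 CPM per kb (SD, n = 3 each). Neighbours in this order did not overlap in any of the 6 samples, and dividing by the longest coding transcript instead gave the same order. By mean CPM over the 6 samples, not divided by length, Fgf7 lay above 84.0% of the genes tested and Fgf10 above 79.0%, against 26.1% for Fgf2 and 20.9% for Fgf18. The keratinocyte growth factor subfamily made up most of the message for stromal FGFs in these cultures. Of the summed CPM per kb of the 4 genes, Fgf7 took 55.2% to 59.0% in each sample, Fgf10 31.2% to 33.6%, Fgf18 6.77% to 9.03% and Fgf2 1.78% to 2.29%.

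**Figure D2:**
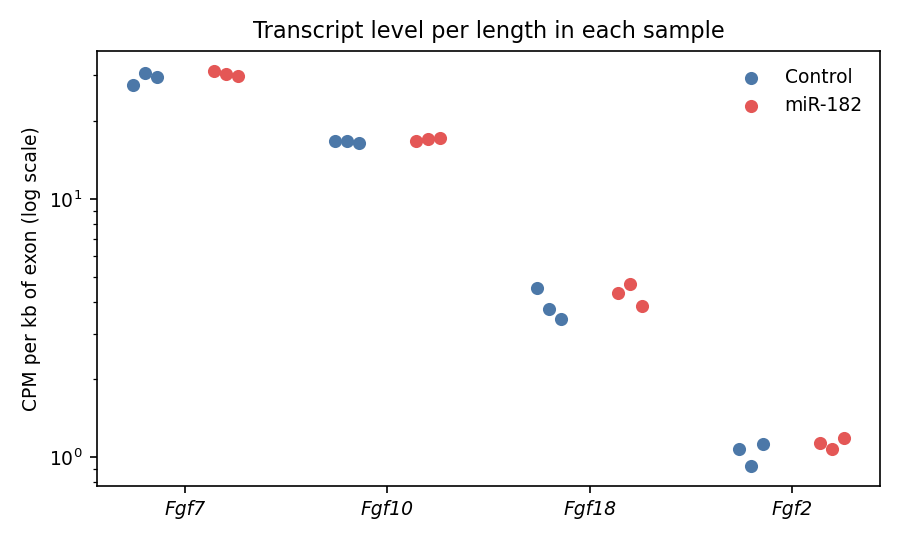
Level of each ligand gene in CPM per kilobase of exon on a log axis, with 1 point per sample and control and miR-182 side by side. Fgf7 lies near 30 CPM per kb and Fgf2 near 1, with no overlap between genes.

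Fgf7 and Fgf10 share a receptor form, so their ratio within a sample was also compared, a measure that does not depend on library scaling. The log2 ratio of Fgf7 to Fgf10 reads was 0.21, 0.38 and 0.35 in the control samples and 0.41, 0.34 and 0.29 in the miR182 samples. These values interleave, with the control samples at both a low and a high value. The means of 0.31 ± 0.088 and 0.34 ± 0.061 (SD, n = 3 each) differed by 0.03 (two-sided exact permutation test, p = 0.7, where 3 samples against 3 cannot go below 0.1). In reads, there were 1.16 to 1.33 of Fgf7 for each read of Fgf10.

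Between the ligands, small sample-to-sample differences did not run together. Across the 6 samples, which share library and depth for all genes, Pearson's r of log2 CPM ran from -0.12 for Fgf7 with Fgf18 to 0.40 for Fgf10 with Fgf18, and it was 0.01 for Fgf7 with Fgf10. The genes most like each ligand over the 6 samples, among 12130 tested genes with a mean of at least 1 CPM, did not pass the test themselves. They were Ip6k1 (r = 0.989), Anapc4 (0.986) and Zfp946 (0.981) for Fgf7, and Trim65 (r = 0.991), Prr5 (0.986) and Fbxo9 (0.985) for Fgf10. For Fgf2 they were Gdap1 (r = 0.993), Usp42 (0.977) and Fbxl18 (0.975), and for Fgf18 they were 4933433P14Rik (r = 0.993), Rbpms2 (0.979) and Bend3 (0.977). With 6 points and many genes, high values of r arise easily, and they are given as a description.

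The other FGF ligands were mostly scarce. Read counts allowed a test for 10 of 22 genes of the FGF family, all 4 stromal ligands among them. These 22 include 4 homologues that stay inside the cell. The other 12 had at most 6 reads in any sample, and 6 of them, among them Fgf4, Fgf8 and Fgf16, were at 0 in all samples. Of the 10 tested, 2 rose and 0 fell, beside 23.2% higher and 23.5% lower among all genes tested. Fgf1 (acidic FGF), a paracrine ligand without a signal peptide like Fgf2, had 4.44 ± 0.434 CPM in control and 7.70 ± 0.965 in miR182 samples (SD, n = 3 each). The endocrine ligand Fgf21 had 1.28 ± 0.298 and 3.33 ± 0.483 CPM (SD, n = 3 each). Their log2 fold changes were 0.79 (SE 0.12, adjusted p = 7.56e-05) and 1.37 (SE 0.19, adjusted p = 4.31e-05) in edgeR's test. Fgf2 and Fgf1 were thus at similar CPM with miR-182, 7.69 and 7.70, and Fgf1 had been the lower of the pair in control samples. Fgf5, a hair follicle and fibroblast ligand, and Fgf11, Fgf13 and Fgf14, homologues that stay inside the cell, were each under 1 CPM and did not pass the test, with log2 fold changes of -0.15, 0.00, -0.03 and 0.62. Whether the change in Fgf1 or Fgf21 differs from that in the stromal ligands was not tested, although the 95% intervals of Fgf1 and Fgf21 do not overlap those of the 4 stromal genes.

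**Figure D3:**
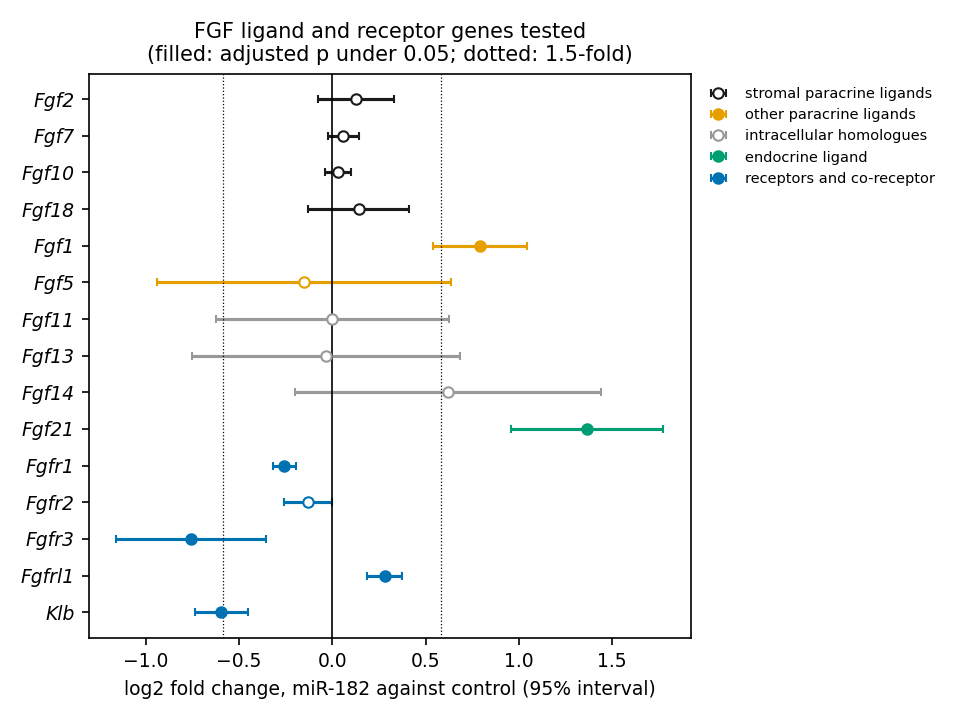
Log2 fold change of miR-182 against control with its 95% interval for each FGF ligand, homologue and receptor gene tested. Filled points passed an adjusted p under 0.05 and dotted lines mark 1.5-fold. The 4 stromal ligands are open points near 0, from 0.03 to 0.14, while Fgf1 and Fgf21 lie to the right and Fgfr1, Fgfr3 and Klb to the left.

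Of 5 receptor and klotho genes tested, 3 fell and 1 rose (80.0%, beside 46.7% of all genes tested), with a median log2 fold change of -0.26 against -0.0043 over all genes tested. Fgfr1, the main FGF receptor of mesenchymal cells and one that binds Fgf2, fell from 375 ± 8.18 to 314 ± 7.11 CPM (SD, n = 3 each; log2 fold change -0.26, SE 0.029, adjusted p = 6.8e-06 in edgeR's test). Fgfr2, the receptor gene for Fgf7 and Fgf10, had 27.8 ± 0.909 and 25.4 ± 1.78 CPM (SD, n = 3 each) and did not pass the test (log2 fold change -0.13, SE 0.060, adjusted p = 0.0886 in edgeR's test). Gene counts do not separate the b and c splice forms. Fgfr3, a receptor for Fgf18 and Fgf1, was low and fell from 1.96 ± 0.259 to 1.15 ± 0.125 CPM (SD, n = 3 each; log2 fold change -0.76, adjusted p = 0.00421 in edgeR's test). Klb, the co-receptor of Fgf21 rather than of the paracrine ligands, fell from 56.7 ± 1.61 to 37.6 ± 4.35 CPM (SD, n = 3 each). Fgfrl1, which encodes a receptor that lacks the kinase domain, rose from 119 ± 2.92 to 144 ± 10.5 CPM (SD, n = 3 each; log2 fold change 0.28, adjusted p = 0.000138 in edgeR's test). Fgfr4 had at most 1 read in any sample and Kl had 0.

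Genes for the proteins that hold paracrine FGFs outside the cell included some that rose and some that fell. Of 12 heparan sulfate core protein and FGF carrier genes tested, 4 rose, 4 fell and 4 did not pass (66.7% passed, beside 46.7% of all genes tested), with a median log2 fold change of 0.06. Among the syndecans, which are cell surface cores, Sdc1 fell from 150 ± 2.63 to 103 ± 6.14 CPM (SD, n = 3 each), Sdc2 fell by 0.25 on the log2 scale and Sdc4 rose by 0.37. Of the glypicans, cores tied to the membrane by a lipid anchor, Gpc6 fell by 0.24 and Gpc4 rose by 0.18 on the log2 scale. Hspg2, which encodes the basement membrane core perlecan, rose by 0.16. The FGF carrier gene Fgfbp3, named outside the rule for its role, had a log2 fold change of -0.14 and did not pass, and Fgfbp1 was at 0.

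Of 16 genes for enzymes that build or trim the heparan sulfate chain, 5 rose and 4 fell, with a median log2 fold change of 0.01. The 9 that passed are 56.2% of the list, near the 46.7% of all genes tested. Hs6st1, a 6-O-sulfotransferase, rose from 62.8 ± 1.69 to 98.2 ± 1.46 CPM (SD, n = 3 each; log2 fold change 0.65, adjusted p = 2.85e-09 in edgeR's test), and its relative Hs6st2 rose by 0.37 on the log2 scale. The epimerase gene Glce rose by 0.26. Ext2, a subunit of the polymerase that extends the chain, fell from 140 ± 2.68 to 98.0 ± 0.803 CPM (SD, n = 3 each; log2 fold change -0.52, adjusted p = 5.72e-09 in edgeR's test). Hpse, the heparanase that cuts the chain and releases bound FGFs, had a log2 fold change of -0.49, and Sulf2, which removes 6-O-sulfates, had one of -0.13, and both fell.

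Downstream of the receptor, 8 of 26 relay genes rose and 7 fell, with a median log2 fold change of -0.0001. The share that passed was 57.7%, beside 46.7% of all genes tested. The 3 genes with the smallest p among those that fell encode adaptors that sit next to the receptor. Shc1 fell from 152 ± 4.83 to 86.4 ± 1.80 CPM, Frs2 from 96.4 ± 1.76 to 62.2 ± 0.567 and Grb2 from 56.1 ± 1.26 to 42.8 ± 0.800 (SD, n = 3 each). Their log2 fold changes were -0.81, -0.63 and -0.39 (adjusted p = 1.59e-10, 2.44e-09 and 3.03e-06 in edgeR's test). Among the genes that rose, those with the smallest p were Nras, Sos2, which encodes a RAS exchange factor, and the adaptor gene Crk. Their log2 fold changes were 0.50, 0.75 and 0.37 (adjusted p = 3.64e-08, 3.76e-08 and 1.67e-07 in edgeR's test).

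In contrast to the 4 ligand genes, the 3′-UTR of Frs2 held 4 copies of TTGCCAA, the most of any pathway gene searched. They are shown because Frs2 is the adaptor through which these ligands signal. All lie on chromosome 10 of GRCm38 on the minus strand, and capitals mark the match, which runs on to TTGCCAAA in the last 3.
Frs2 117071247 to 117071253: aggaaactTTGCCAAgcagtctc
Frs2 117070810 to 117070817: cttaatgtTTGCCAAAttagaat
Frs2 117070312 to 117070319: gactaccaTTGCCAAAttgtata
Frs2 117069470 to 117069477: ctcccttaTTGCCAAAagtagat
Among other relay genes that held the match, named after their values were seen, Flrt2 fell, Braf rose and Pik3ca did not pass, with log2 fold changes of -0.36, 0.14 and -0.05. A match of letters is not a measured site.

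Of 21 genes tested that report on FGF receptor and ERK signaling, 11 rose and 1 fell, with a median log2 fold change of 0.17. The 12 that passed are 57.1% of the list, beside 46.7% of all genes tested. By direction the list was uneven, with 11 higher and 1 lower, whereas 23.2% of all genes tested were higher and 23.5% lower. Spry1, a feedback inhibitor, rose from 63.5 ± 0.945 to 94.5 ± 2.75 CPM (SD, n = 3 each), and the early response gene Ier3 rose from 37.5 ± 1.83 to 57.6 ± 2.62 CPM (SD, n = 3 each). Spred3, from the Sprouty-related family, rose by 0.45 on the log2 scale. Their adjusted p were 1.2e-08, 2.07e-07 and 3.24e-05 in edgeR's test. Dusp4, an ERK phosphatase, fell from 103 ± 1.77 to 75.3 ± 1.77 CPM (SD, n = 3 each; log2 fold change -0.46, adjusted p = 6.78e-08 in edgeR's test). Among other common readouts of FGF signaling, named after their values were seen, Dusp6 rose by 0.26 on the log2 scale, whereas Spry2, Spry4, Etv4 and Etv5 had log2 fold changes of 0.06, 0.06, -0.03 and 0.06 and did not pass. These genes answer to other growth factors too.

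Stromal, preadipocyte and adipocyte markers moved in the same comparison, and which cells of these cultures made the ligands was not measured. Of 11 stromal and preadipocyte markers tested, 7 fell and 1 rose (72.7%, beside 46.7% of all genes tested), with a median log2 fold change of -0.40. Pdgfra fell from 450 ± 4.97 to 248 ± 7.54 CPM, Cd34 from 17.7 ± 0.923 to 6.14 ± 0.338 and Dcn from 677 ± 23.1 to 433 ± 5.34 (SD, n = 3 each). Pdgfrb, Zfp423 and Col1a1 had log2 fold changes of 0.06, 0.08 and -0.05 and did not pass, and Thy1 rose by 0.19. The summed level of the 12 stromal markers, in which Col1a1 is the largest part, was 21729 to 22840 CPM in control and 20581 to 21440 in miR182 samples. Of 10 adipocyte markers, 7 fell and 2 rose (90.0%), with a median of -0.41. Plin4 and Lep rose by 0.50 and 0.37 on the log2 scale, and Plin1 had a log2 fold change of -0.06 and did not pass. The summed level of the 10 adipocyte markers was 12804 to 13523 CPM in control and 9196 to 10339 in miR182 samples. Lpl and Fabp4, with control means of 6275 and 3316 CPM, are the largest parts of this sum. The summed level of the 4 ligand genes was 179 to 187 CPM in control and 189 to 191 in miR182 samples. The part of cell composition in the ligand levels was not tested.

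**Figure D4:**
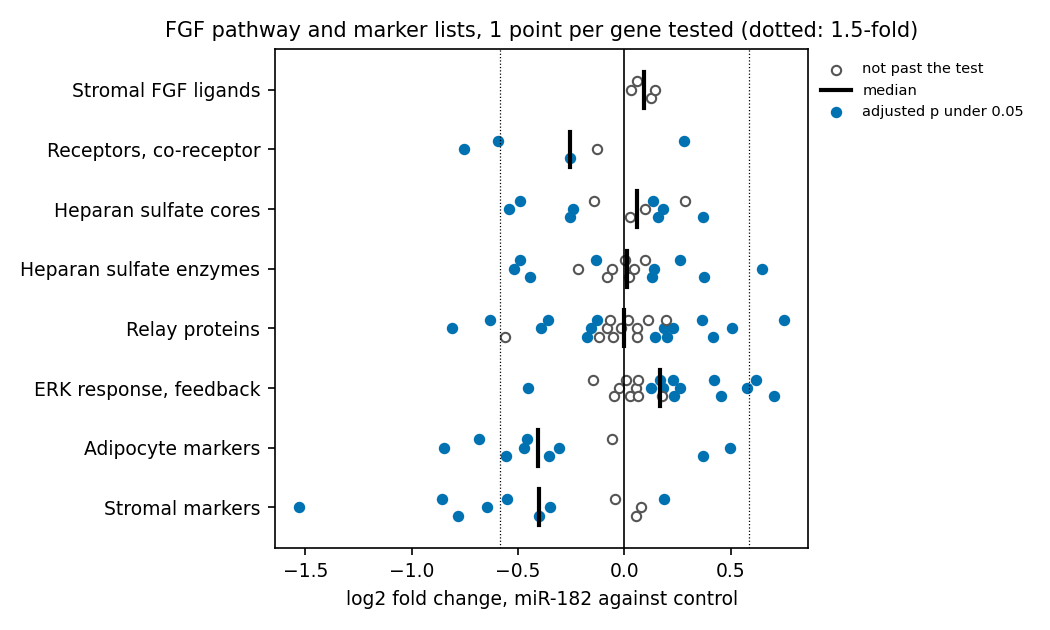
Log2 fold change of miR-182 against control for every tested gene of the FGF pathway and marker lists, with 1 point per gene, filled where the adjusted p was under 0.05, and the list median as a bar. The 4 ligand genes lie between 0.03 and 0.14, while the adipocyte and stromal marker medians lie near -0.4.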

How the data were processed

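RNA was sequenced from 6 samples, 3 per group, as stranded poly(A) libraries. Raw counts of reads for each gene symbol were deposited, with no normalization by the authors. Per the labels' processing notes, reads were demultiplexed with bcl2fastq and the notes also name TopHat2, HTSeq and mm9, with no versions. The strand setting of the counting is not given in the sources used here. Reads assigned to no counted feature (12.7% to 13.0% of uniquely aligned reads) or tallied as ambiguous (0.652% to 0.667%) were left out of library sizes and tests. Reads that were not uniquely aligned were tallied apart from genes, so near-identical copies can be undercounted.

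Counts were tested in R 4.3.3 with edgeR 4.0.16 (TMM, filterByExpr with a minimum count of 10, glmQLFit, glmQLFTest, two-sided) and Benjamini-Hochberg adjustment over 13117 genes. Passing means an adjusted p under 0.05, and called means a change of at least 1.5-fold as well. The likeness of genes used log2(CPM + 0.1). The fit was tested on simulated data. Named were the members and every other FGF ligand, homologue and receptor tested. The 3 genes with the smallest p per direction in each other pathway list, and the 3 genes most like each member, were also named. Marker genes and genes said to be chosen after their values were seen are named besides. Members, lists and tests were chosen with earlier results of these data known. Alternatives were DESeq2 1.42.0, limma-voom (limma 3.58.1), other size factors, filters and fold cutoffs, a replicate block and leaving out each sample.

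Lengths, overlaps and 3′-UTRs came from GENCODE M21 on GRCm38, a later build than mm9. The microRNA came from RefSeq, and Frs2 UTR letters from GENCODE transcripts. Tables and figures were made in Python 3.11.15 (pandas 2.3.3, numpy 2.4.6, scipy 1.17.1, matplotlib 3.10.9). Replicates of a group were not copies of a library, with a chi-square of 2.08 to 6.90 per degree of freedom between pairs.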

Additional observations from a re-analysis of the deposited data

How the results depend on the processing

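None of the 4 ligand genes passed the test under any of 13 alternatives, and each kept a log2 fold change above 0 in all of them. The ranges over these alternatives were 0.05 to 0.18 for Fgf2 (adjusted p 0.186 to 0.731), 0.02 to 0.10 for Fgf7 (0.0846 to 0.736), 0.02 to 0.04 for Fgf10 (0.333 to 0.679) and 0.06 to 0.26 for Fgf18 (0.142 to 0.762), in edgeR, DESeq2 or limma-voom fits. The lowest adjusted p of Fgf7 came without control replicate 2 and that of Fgf18 without control replicate 1. Blocking on the replicate number gave log2 fold changes of 0.13 for Fgf2, 0.06 for Fgf7, 0.03 for Fgf10 and 0.14 for Fgf18, and the block changed no call reported for the ligands, other FGFs or receptors. Same-numbered samples did not deviate together, with correlations of -0.185, -0.0436 and -0.0785 between their deviations from the group means. Deviations from a group mean cancel out within the group, and the pairs are few. These values therefore cannot decide whether same-numbered samples share a mouse, culture or batch. The difference in the log2 ratio of Fgf7 to Fgf10 ran from -0.02 to 0.06 when 1 sample was left out and so had no stable sign. The number of genes called over the whole table was 977, and it was 280 with a 2-fold cutoff and 6124 with no fold cutoff, the last added after seeing the data; these follow from the cutoff itself. The median log2 fold change of all genes lay between -0.022 and -0.0001 in all these fits. The counts of genes that passed in each FGF pathway list stayed within 1.5 times. Hs3st1, counted among the 4 enzyme genes that fell, passed in 5 of 13 alternatives and not with the block. Cbl and Egr1, counted among the genes that rose, passed in 11 of 13. Cd55, counted among the 7 stromal markers that fell, passed in 9 of 13. Fgf18, with 106 to 150 reads per sample, has the widest interval of the 4.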

Other observations

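Among marker lists of other cell types, 4 of 5 smooth muscle and pericyte genes tested rose with miR-182. Of all genes tested, 23.2% passed as higher and 23.5% as lower. Acta2 rose from 2364 ± 68.7 to 2891 ± 121 CPM and Cspg4 from 50.7 ± 2.42 to 71.8 ± 7.25 CPM (SD, n = 3 each; adjusted p = 1.95e-05 and 1.55e-05 in edgeR's test), Tagln and Cnn1 rose by 0.19 and 0.20 on the log2 scale, and Myh11 had a log2 fold change of -0.02 and did not pass. The actin gene Acta1, the 1 tested gene of 6 skeletal muscle markers, rose from 18.5 ± 0.223 to 30.5 ± 2.19 CPM (SD, n = 3 each), while Myod1, Ckm, Myh4 and Pax7 were at 0 in all samples. Of 3 endothelial genes tested, Tek, named after its values were seen, fell from 6.05 ± 0.608 to 2.43 ± 0.247 CPM (SD, n = 3 each; adjusted p = 1.49e-06 in edgeR's test). Kdr went the other way, from 1.59 ± 0.426 to 2.14 ± 0.201 CPM (SD, n = 3 each), and did not pass (log2 fold change 0.43, adjusted p = 0.0899 in edgeR's test). Cdh5 was near 0.5 CPM in both groups and did not pass either. Of 3 macrophage and leukocyte genes tested, Cd68 and Csf1r had log2 fold changes of -0.24 and 0.11 and did not pass, and Lyz2 fell, from 1.24 ± 0.115 to 0.795 ± 0.145 CPM (SD, n = 3 each; adjusted p = 0.0324 in edgeR's test), and it passed in 8 of 13 alternatives. None of the 8 epithelial and mesothelial markers had enough reads to be tested, with a summed level of 0.471 to 0.690 CPM in control and 0.380 to 0.548 in miR182 samples.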
